A study of Mus musculus with 8 samples.

Results

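Ribosomal protein genes encode the proteins that, with the ribosomal RNAs, make up the large and the small subunit of the ribosome in the cytosol. The genes described here are the protein-coding genes whose symbols begin with Rpl or Rps and a digit, together with Rplp0, Rplp1, Rplp2 and Rpsa. Kinases of the Rps6k family and symbols marked as pseudogenes were left out. This rule took 86 of the 53700 genes in the expression table. Of these, 43 encode proteins of the large subunit, 31 proteins of the small subunit and 3 proteins of the stalk, the flexible arm of the large subunit that recruits elongation factors. The other 9 are paralogs or genes with a related name (Rpl3l, Rpl7l1, Rpl10l, Rpl22l1, Rpl36al, Rpl39l, Rps27l, Rps27rt and Rps19bp1).

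A ribosome holds a single copy of most of these proteins, and a cell makes them in step with each other. Their mRNAs are short and abundant, and many begin with a C followed by a run of C and T letters at the first transcribed bases. Such a start is called a terminal oligopyrimidine (TOP) start, and through it mTORC1, a kinase complex that senses amino acids, controls how well these mRNAs are translated and how stable they are. The transcript level measured here therefore shows the supply of ribosomal protein mRNA, and neither its translation nor the number of ribosomes was measured.

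The study fed Pkd1KO mice, a model of polycystic kidney disease, diets that differed in protein and collected an epithelial population from their kidneys by flow sorting, with stains for macrophages (CD11b and F4/80), proximal tubule and collecting duct. All 8 libraries come from such mice. Pkd1 was deleted in the whole body by CAGG-CreER, a Cre that tamoxifen switches on in all tissues, with 3 tamoxifen doses at 5 to 6 weeks of age, and there was no library from undeleted mice. From 2 weeks later the mice ate 2.8 g of food per day for 1 week, and each library is a pool of 2 to 3 mice. The low protein diet (LP) held 6% protein and has the libraries labelled F2 and M. The normal protein diet (NP) held 18% and has F2, KO7 and M. The high protein diet (HP) held 60% and has F1, F2 and M. By the paper's account the diets had equal calories, and its diet table lists less sucrose as protein rises and no corn starch on HP. Effects of more protein and of less carbohydrate therefore cannot be told apart here. The labels do not say what F, M and KO7 mean. The F1 and F2 libraries held Xist, a transcript of the inactive X, at 23.4 to 45.3 FPKM and the Y-linked Ddx3y at 0.21 to 0.77 FPKM. In NP M, HP M and NP KO7 Xist was at 0.78 to 1.09 FPKM and Ddx3y at 7.99 to 12.4 FPKM, so KO7 goes with M in these genes. LP M held both (16.3 and 9.74 FPKM).

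The unit of the table, FPKM, scales fragments by transcript length and by library size, so levels can be compared between genes per unit length. Depth was estimated from the steps between low values at 26200000 to 33600000 fragments per library. The summed level of 10 proximal tubule markers lay between 8183 and 10590.2 FPKM, and that of 8 macrophage markers between 49.6 and 131 FPKM, so epithelial markers far exceeded macrophage markers in every library. The median log2 fold change of the proximal tubule markers was -0.41 for LP against NP, with 7 of 10 below 0 and 4 of 10 lower at an unadjusted p under 0.05, and 0.07 for HP against LP. Summed markers of other tubule segments were lowest on LP. The summed level of 8 thick ascending limb markers was 716 to 790.4 FPKM on LP, 1019.6 to 2117 on NP and 1190 to 2466 on HP, and that of 6 principal cell markers 173 to 186 FPKM on LP, 317 to 519 on NP and 259 to 391 on HP. Mitochondrial transcripts made up 25.6% (NP KO7) to 36.3% (HP M) of a library. The median log2 fold change of HP against LP was 0.98 over 5 erythroid and 0.66 over 6 endothelial markers, and -0.48 over 9 immediate early genes that cell dissociation can induce (8 of 9 below 0). The immediate early genes summed to 167 to 298 FPKM on LP, 151 to 288 on NP and 117 to 183 on HP, so the diets overlapped. The part of these shifts in the results below was not tested.

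The start sites of the members were searched for letters of a TOP start. RefSeq promoters of the mouse build GRCm38.p6 were at hand for 66 of the 86 genes. A run of C and 6 or more further letters that are each C or T, with at least 2 T, lay within 25 bases of an annotated start on the coding strand in 36 of the 66 genes (54.5%), against 23.8% of 27025 genes with a promoter in the same table. The letters CCGGAAG, a motif of ETS-family transcription factors, lay on either strand of the 300-base windows in 26 of the 66 genes (39.4%), against 9.93% of all genes. TATAAA lay in the 45 bases before the start of 1 of the 66 genes (1.52%), against 2.94% of all genes. A match describes letters in a window and is not a site that was measured. The 8 starts printed here are a choice from the members named below, with 15 bases on each side of the annotated start. Capitals mark a run of at least 5 letters that begins with C, holds only C and T, and reaches within 2 bases of the start. The choice favours starts with such a run and does not show how common it is. Among other members described below, Rpl4, Rpl5, Rpl22l1, Rpl23, Rpl41, Rplp0, Rps2 and Rps12 have none by this rule at their annotated start. Of these, Rpl4, Rpl22l1 and Rps12 do hold a run by the count within 25 bases. In Rpl22l1 a run of C and T next to the start begins with T and is therefore not marked.
Rpl14 (chr9:120571502-120571531, plus strand): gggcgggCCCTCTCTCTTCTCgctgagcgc
Rpl12 (chr2:32961697-32961726, plus strand): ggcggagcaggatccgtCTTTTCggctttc
Rpl13a (chr7:45128731-45128760, minus strand): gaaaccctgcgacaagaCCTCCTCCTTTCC
Rplp2 (chr7:141447636-141447665, plus strand): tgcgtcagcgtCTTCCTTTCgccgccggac
Rps6 (chr4:86857353-86857382, minus strand): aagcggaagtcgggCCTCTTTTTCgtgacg
Rps27 (chr3:90213634-90213663, minus strand): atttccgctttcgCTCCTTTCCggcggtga
Rps27rt (chr9:114982725-114982754, minus strand): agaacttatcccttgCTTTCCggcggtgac
Rps19 (chr7:24884577-24884606, plus strand): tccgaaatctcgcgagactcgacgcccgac
Rps19 is shown at the first of its 3 annotated starts, none of which has such a run, because its diets did not overlap. Rps27rt is a copy of Rps27, and CTTTCCggcggtga stands in both windows. Between HP and LP the median log2 fold change was -0.52 for the 35 tested members with a run within 25 bases, as counted above, and -0.49 for the 29 without one. That count takes a longer run in a wider window than the capitals do. By it Rps19 is among the members with a run and Rpl12 among those without one.

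Of the 86 genes, 84 had at least 1 FPKM in at least 2 libraries and were tested. The others, Rpl10l and Rpl39l, are copies known for their expression in testis. Rpl10l was listed at 0 in all 8 libraries and Rpl39l at no more than 0.11 FPKM. The mean level of the 84 genes ranged from 1.82 FPKM (Rpl3l) to 2639 FPKM (Rpl41), with a median of 626 FPKM, and 80 of them had a mean of at least 100 FPKM. The 43 large subunit genes had a median level of 593 FPKM, the 31 small subunit genes 714 FPKM and the 3 stalk genes 680.1 FPKM.

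Ribosomal protein transcripts took their largest share of the library on LP and their smallest on HP. The 86 genes together made up 7.57% (F2) and 7.41% (M) of all FPKM on LP. On NP they made up 6.46% (F2), 7.36% (KO7) and 5.42% (M), and on HP 5.85% (F1), 6.18% (F2) and 4.83% (M). Both LP libraries lay above every other library, and NP and HP overlapped. In such bulk samples, fewer cells of a type and less RNA per cell cannot be told apart. The means were 7.49% ± 0.113 (SD) over the 2 LP libraries, 6.42% ± 0.971 over the 3 NP libraries and 5.62% ± 0.706 over the 3 HP libraries. As a share of the FPKM of protein-coding genes without mitochondrial and haemoglobin genes, the values were 13.3% ± 0.347 on LP, 11.2% ± 0.818 on NP and 10.5% ± 1.15 on HP. On that scale, too, both LP libraries (13.6 and 13.1%) lay above all others, and the HP library labelled F2 (11.8%) lay above all 3 NP libraries. The ratio of the large subunit sum to the small subunit sum stayed between 1.29 and 1.34 in the 8 libraries.

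**Figure D1:**
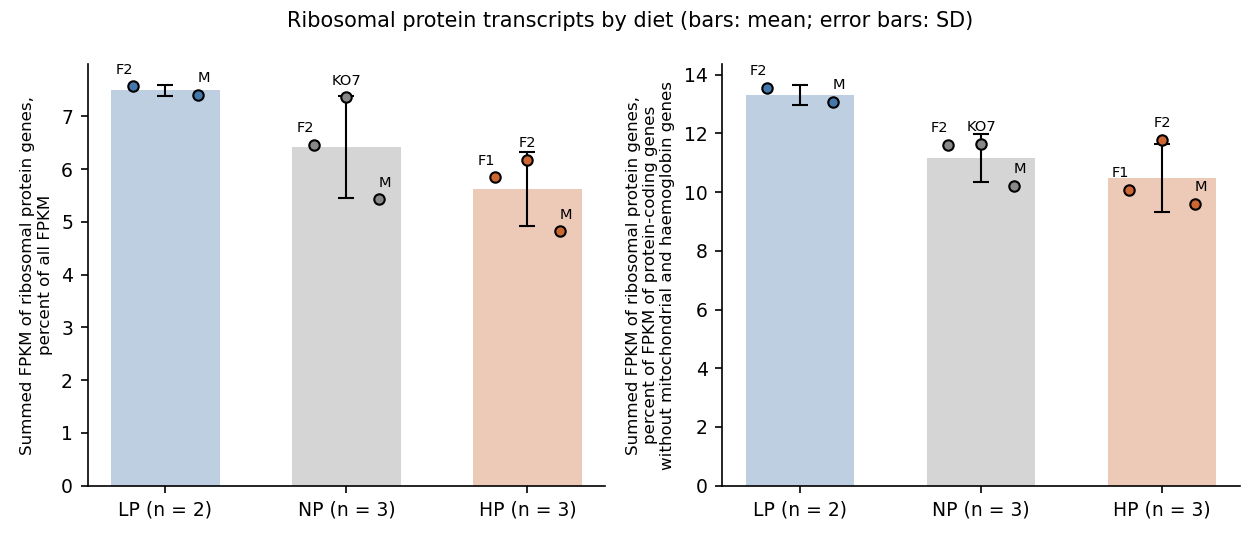
Summed FPKM of the 86 ribosomal protein genes in each library (points, with the library label), as a percent of all FPKM (left) and of the FPKM of protein-coding genes without mitochondrial and haemoglobin genes (right); bars are diet means and error bars the SD. The LP libraries lie at 7.41 and 7.57% on the left, above the 3 NP libraries (5.42 to 7.36%) and the 3 HP libraries (4.83 to 6.18%), and NP and HP overlap in both panels.

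The libraries of 1 diet differed in the same way in most members. On NP, KO7 was the highest library in 67 of the 84 tested genes and M the lowest in 74. On HP, F2 was the highest in 78 and M the lowest in 74. In LP F2 and in LP M, 83 of the 84 genes lay above their own mean over the 8 libraries, against 33 in NP F2, 72 in NP KO7, 4 in NP M, 2 in HP F1, 39 in HP F2 and 1 in HP M. The members thus went up and down together across the libraries of a diet and are not independent observations of it. KO7 also had the smallest share of mitochondrial transcripts (25.6%), while M had the largest of its diet on NP (34.0%) and on HP (36.3%). Their part in the order of the libraries was not tested.

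**Figure D2:**
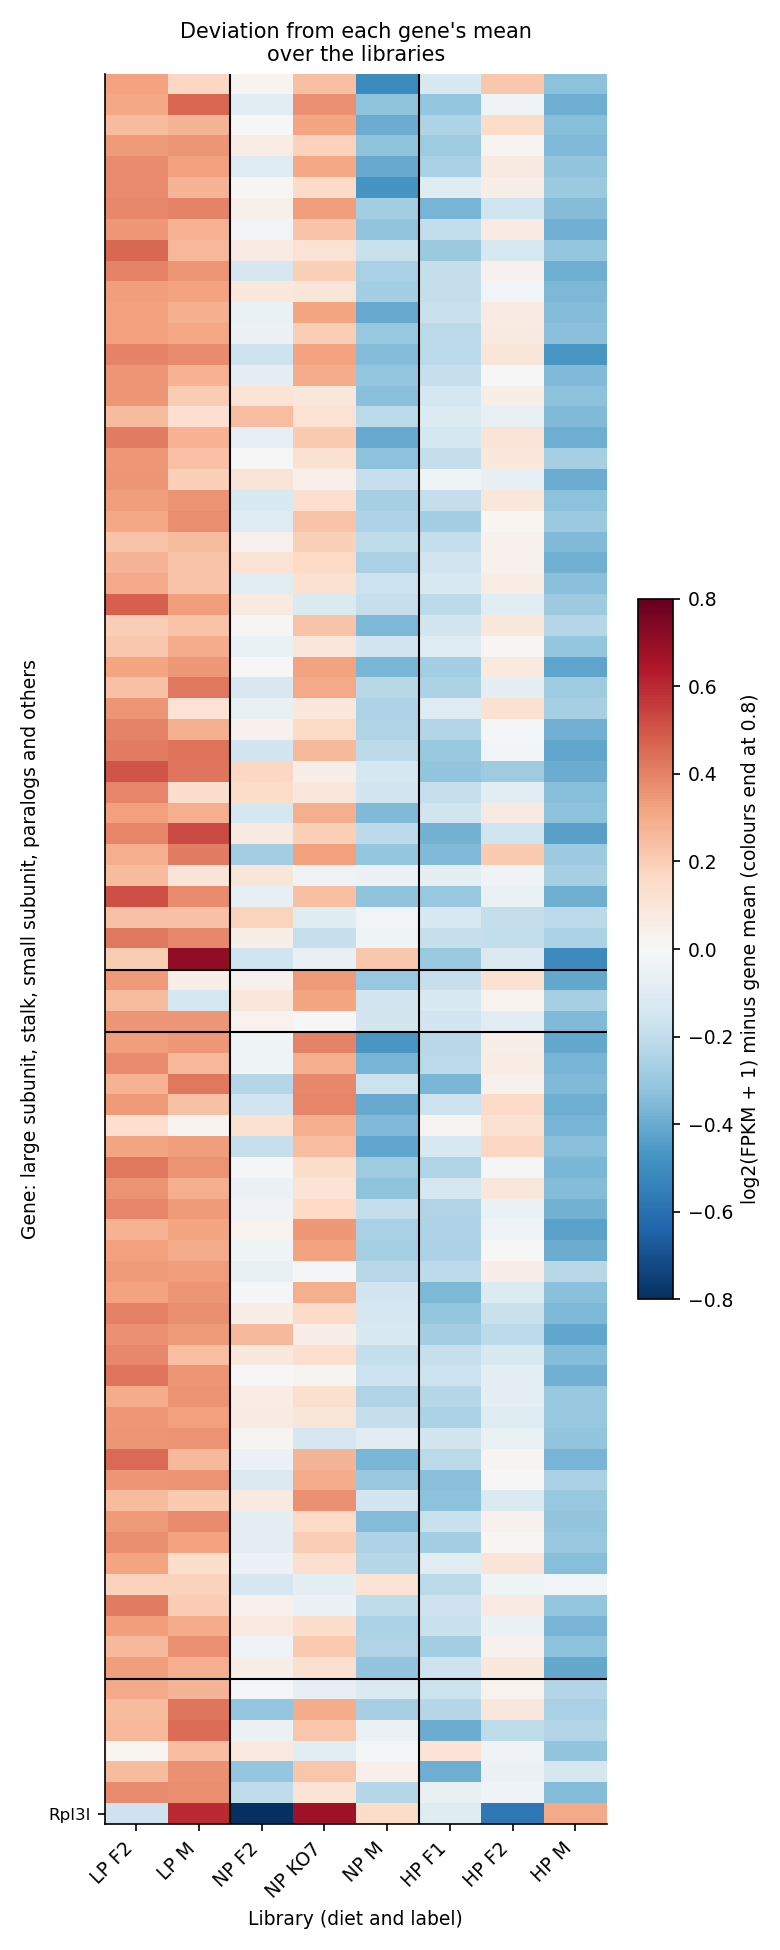
Each row is 1 of the 84 tested genes, each column 1 library, and the colour gives log2(FPKM + 1) minus the gene's mean over the 8 libraries (red above, blue below, colours end at 0.8). Nearly all genes are red in both LP columns and blue in NP M, HP F1 and HP M, NP KO7 is red in most genes, and NP F2 and HP F2 are close to the mean. Rpl3l, in the last row, is blue in LP F2 and NP F2 and red in NP KO7.

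The comparison of HP with LP sets the diet with the most protein and the least sucrose against the diet with the least protein and the most sucrose. Every tested member had a lower fitted level on HP, with a median log2 fold change of -0.50 on the log2(FPKM + 1) scale against -0.04 over all 13566 genes tested, and the mean FPKM of a member on HP was 0.575 to 0.907 times that on LP (median 0.705). None of the 84 passed the test (limma, Benjamini-Hochberg adjusted p under 0.05 over all genes), where 0.0147% of all genes were lower and 0% were higher. The smallest adjusted p of a member was 0.176. At an unadjusted p under 0.05, 60 of the 84 lay lower and 0 higher, where 7.32% of all genes lay lower and 5.06% higher. All 3 HP libraries lay below both LP libraries in 77 of the 84 genes, where 20.3% of all genes did, and above both in none, where 12.8% did. The 7 genes without that separation were Rpl3l, Rpl7, Rpl7l1, Rpl41, Rplp0, Rplp1 and Rps2. The count of 60 was 19 without LP F2 (4.71% of all genes lower), 22 without LP M (3.19%), 32 without HP F1 (6.52%), 33 without HP M (6.23%) and 24 under median-of-ratios scaling (5.90%). It was 42 to 56 with a common sum in every library (2.81 to 4.59%) and 44 under quantile normalization (6.14%). Other settings raised it, to 69 without NP KO7 (8.79%) or HP F2 (4.71%), and 68 without NP M (7.70%). It was 70 with only these 2 diets in the fit (8.85%), 65 with array weights (12.0%) and 75 with a block for F2 and M (14.7%). With the letter F or M of the label as a covariate, and without NP KO7, it was 79 (12.1%). In that fit 20 members passed and lay lower on HP (smallest adjusted p = 0.0247, limma), where 0.973% of all genes were called lower and 0.420% higher.

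Among large subunit genes the difference between HP and LP was widest in Rpl14. Rpl14 (ENSMUSG00000025794.10, chromosome 9) was at 672 and 638 FPKM in LP F2 and M, 531, 490.3 and 429.6 FPKM in NP F2, KO7 and M, and 381, 389 and 359.7 FPKM in HP F1, F2 and M. The 3 diets did not overlap, and LP was the highest. The log2 fold change of HP against LP was -0.80 (standard error 0.15, unadjusted p = 0.00039, adjusted p = 0.176, limma). With array weights Rpl14 was the only member to pass, at an adjusted p of 0.049 (limma), where 0.162% of all genes were called lower and 0.103% higher. Rpl12 (chromosome 2), part of the base of the stalk, was at 572 and 629 FPKM in the LP libraries, 459, 498 and 378 FPKM in the NP libraries, and 336, 391 and 322 FPKM in the HP libraries. Each HP library lay below each LP library, and the highest HP library lay above the lowest NP library. Its log2 fold change against LP was -0.78 (standard error 0.17, adjusted p = 0.211, limma).

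Rpl5, which carries the smallest ribosomal RNA into the large subunit and binds Mdm2 when ribosome assembly fails, was the member that varied least within a diet. It was at 374 and 364 FPKM in the LP libraries, 288, 245 and 272 FPKM in the NP libraries, and 246, 243 and 234 FPKM in the HP libraries. LP stood apart from both other diets, which overlapped. Its log2 fold change was -0.61 (standard error 0.13, adjusted p = 0.211, limma) for HP against LP and 0.46 (standard error 0.13, adjusted p = 0.409) for LP against NP. Rpl23, another binder of Mdm2, was at 792 and 717 FPKM in the LP libraries, 596, 525 and 499 FPKM in the NP libraries, and 491, 536 and 465 FPKM in the HP libraries, the same order of the diets. Rpl4 and Rpl36al were the next least variable members. Rpl4, which lines the tunnel through which the new protein leaves, was at 465 FPKM in both LP libraries, 447, 369 and 389 FPKM in the NP libraries, and 360.2, 345 and 339.9 FPKM in the HP libraries, so that its 3 diets did not overlap. Rpl10, the X-linked gene of a late-joining large subunit protein, averaged 1248 ± 116 FPKM (mean ± SD) over the 2 LP libraries, 973 ± 102 over the 3 NP libraries and 819 ± 57.9 over the 3 HP libraries.

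Among small subunit genes the lowest unadjusted p for HP against LP belonged to Rps12. Rps12 was at 1049 and 1027 FPKM in the LP libraries, 823, 883 and 724 FPKM in the NP libraries, and 642, 703 and 619.8 FPKM in the HP libraries, with no overlap between diets. Its log2 fold change of HP against LP was -0.67 (standard error 0.15, adjusted p = 0.219, limma). Rps19, the gene most often mutated in human Diamond-Blackfan anaemia, was at 1019 and 1001 FPKM in the LP libraries, 948, 821 and 725 FPKM in the NP libraries, and 654, 683 and 591 FPKM in the HP libraries, again with no overlap. Rps6, whose protein is phosphorylated downstream of mTORC1, was at 837 and 823 FPKM in the LP libraries, 688, 703 and 575 FPKM in the NP libraries, and 552, 615 and 533 FPKM in the HP libraries. The LP libraries were the highest, NP and HP overlapped, and the log2 fold change of HP against LP was -0.55 (standard error 0.15, adjusted p = 0.254, limma). Rpsa, also known as a receptor for laminin, was at 646 and 626 FPKM in the LP libraries, 568, 698 and 487 FPKM in the NP libraries, and 430.5, 499 and 438 FPKM in the HP libraries. Its NP library KO7 was the highest of all 8.

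The 3 stalk genes differed in whether LP stood apart. Rplp2 was at 716 FPKM in both LP libraries, 571, 562 and 504 FPKM in the NP libraries, and 503, 527 and 437 FPKM in the HP libraries, which put LP apart from the rest (log2 fold change of HP against LP -0.55, standard error 0.15, adjusted p = 0.252, limma). Its partner Rplp1 was at 2339 and 1912 FPKM in the LP libraries, 1887, 2337 and 1494 FPKM in the NP libraries, and 1624, 2007 and 1390.2 FPKM in the HP libraries, and the diets overlapped. Rplp0, the protein that anchors both to the subunit, was at 804 and 611 FPKM in the LP libraries, 716, 838 and 607 FPKM in the NP libraries, and 618, 686 and 559.8 FPKM in the HP libraries. It was the only tested member whose fitted level was not higher on LP than on NP, with a log2 fold change of -0.03 (standard error 0.19, adjusted p = 0.967, limma). That difference did not exceed its error, and whether Rplp0 differs from the other members was not tested.

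The most abundant members followed the same order with wider spread. Rpl41, a peptide of the large subunit and the highest member, was at 3239 and 2908 FPKM in the LP libraries, 2628, 3060.4 and 1825 FPKM in the NP libraries, and 2379.9, 3013 and 2061 FPKM in the HP libraries, with overlap between all diets. Rpl13a averaged 2546 ± 186 FPKM (mean ± SD) over the 2 LP libraries, 1967 ± 487 over the 3 NP libraries and 1652 ± 226 over the 3 HP libraries. Rpl36, Rpl32 and Rpl26 had LP means of 1447, 1393 and 1385 FPKM and HP means of 1099, 959 and 972 FPKM. Of the small subunit, Rps15 averaged 1874 ± 8.50 FPKM (mean ± SD) over the 2 LP libraries, 1489 ± 441 over the 3 NP libraries and 1303 ± 209 over the 3 HP libraries. Rps27 had an LP mean of 1565 FPKM and an HP mean of 1056 FPKM. Rps2 differed least between HP and LP (log2 fold change -0.15, standard error 0.23, adjusted p = 0.825, limma), at 1204 and 1113 FPKM in the LP libraries, 1193, 1342 and 859 FPKM in the NP libraries, and 1114, 1191 and 846 FPKM in the HP libraries. Rps14, Rps15 and Rpl41 varied most within a diet among members of at least 10 FPKM. Rps14 ranged from 837 to 1451 FPKM among the NP libraries alone.

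**Figure D3:**
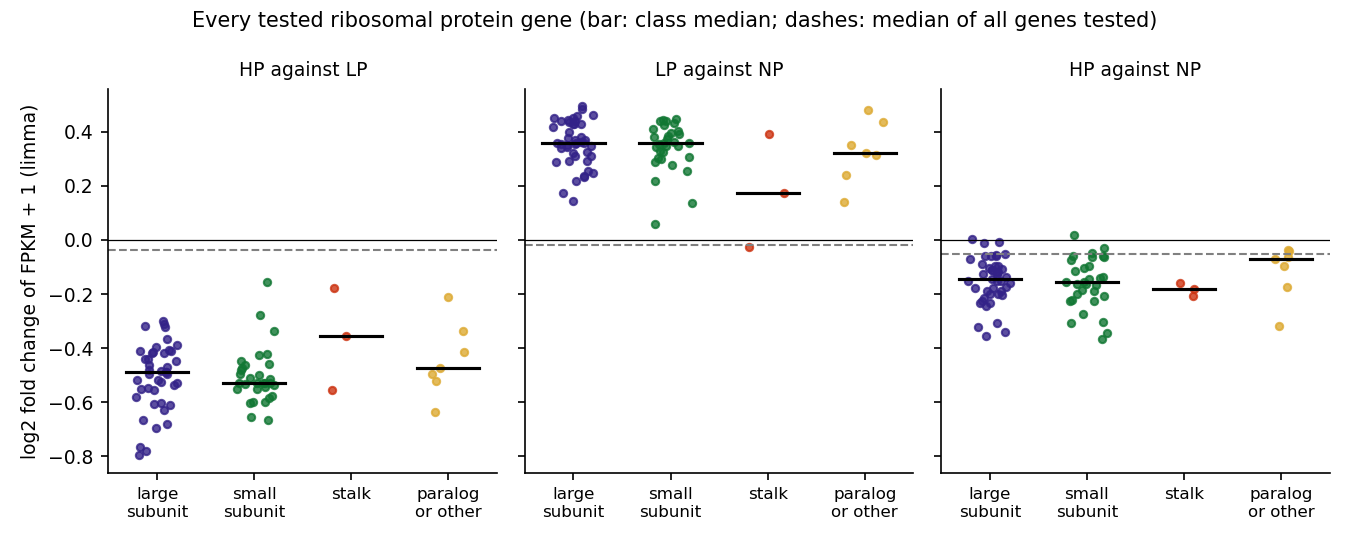
Each point is 1 of the 84 tested members, placed by its log2 fold change of FPKM + 1 (limma) in the 3 diet comparisons and grouped as large subunit, small subunit, stalk, and paralog or other; bars are group medians and dashes the median of all genes tested. All points lie below 0 for HP against LP (-0.80 to -0.15), all but Rplp0 above 0 for LP against NP, and all but Rpl41 and Rps21 below 0 for HP against NP, where they lie closest to the dashes.

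The comparison of LP with NP sets the diet with the least protein and the most sucrose against the normal diet. In 83 of the 84 members the fitted level was higher on LP, with a median log2 fold change of 0.36 against -0.02 over all genes. The FPKM of a library did not sum to the same total, with means of 1005980 on LP, 934374 on NP and 959611 on HP. Scaled to the same FPKM sum, the median of the members was 0.25 for LP against NP (-0.10 over all genes) and -0.43 for HP against LP (0.02). The mean FPKM of a member on LP was 0.982 to 1.40 times that on NP (median 1.26). None passed the test, where 0.0147% of all genes were higher and 0% lower, and the smallest adjusted p was 0.409 (limma). At an unadjusted p under 0.05, 20 members lay higher and 0 lower, where 4.57% of all genes lay higher and 5.82% lower. Both LP libraries lay above all 3 NP libraries in 58 members, where 12.7% of all genes did, and below them in none, where 16.4% did. The lowest p-values were those of Rpl5, Rpl23 (log2 fold change 0.48, standard error 0.15), Rpl14 (0.44, standard error 0.15) and Rps19bp1. A block for the labels F2 and M, which leaves out NP KO7 and HP F1, gave 73 members higher at an unadjusted p under 0.05, where 10.5% of all genes lay higher and 12.3% lower, and 0 passed. Without LP F2 that count was 1 (2.91% of all genes higher) and without LP M it was 2 (2.23%), shares of the members of 1.19% and 2.38% that lie near or below those of all genes. It was 57 without NP KO7 (6.56%), 9 without NP F2 (4.69%), 7 without NP M (4.14%) and 11 without HP F1 (4.22%). The scaling moved it as well, to 2 with the same FPKM sum in every library (1.84%), with or without the ribosomal protein genes in that sum (1.99% without), 5 under quantile normalization (5.85%), 7 under median-of-ratios scaling (4.86%) and 8 with the same sum without haemoglobin and mitochondrial genes (1.93%). Under quantile normalization and with the same FPKM sum, the share of the members (5.95% and 2.38%) was thus close to that of all genes. It was 10 with only the LP and NP libraries in the fit (3.67%), 49 with array weights (7.62%) and 74 with the letter F or M as a covariate (9.49%).

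HP and NP lay closest to each other in these genes. The 3 comparisons share libraries, so their values stand side by side and are not independent. The fitted level was lower on HP in 82 members, with a median log2 fold change of -0.15 against -0.05 over all genes, and the mean FPKM of a member on HP was 0.773 to 1.00 times that on NP (median 0.896). None passed the test, where 0.0147% of all genes were lower and 0.00737% higher (smallest adjusted p of a member 0.484, limma). At an unadjusted p under 0.05, 4 members (Rpl14, Rps19, Rpl22l1 and Rpl12) lay lower, a share of 4.76% where 5.92% of all genes did, and 0 lay higher, where 2.96% did. All HP libraries lay below all NP libraries in 5 members (Rpl4, Rpl14, Rpl22l1, Rps12 and Rps19), a share of 5.95% where 8.78% of all genes did, and above them in none, where 3.66% did. The log2 fold change was -0.37 for Rps19 (standard error 0.15, adjusted p = 0.524, limma) and -0.35 for Rpl14 (standard error 0.13, adjusted p = 0.484). Rpl41 (0.00, standard error 0.23) and Rps21 (0.02, standard error 0.20) were the members not below 0. The median was -0.05, with 30 members above 0, without NP KO7 and -0.27 without NP M, and leaving out 1 library gave 0 (HP M) to 10 (NP M) members lower at an unadjusted p under 0.05.

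Libraries that carry the same label in every diet gave the comparisons again without the others. Among the F2 libraries the median log2 difference was -0.31 for HP against LP (84 of 84 members below 0), 0.36 for LP against NP (83 above 0) and 0.05 for HP against NP (49 above 0). Among the M libraries it was -0.64 for HP against LP (84 below 0), 0.57 for LP against NP (84 above 0) and -0.10 for HP against NP (65 below 0). LP was thus the highest within both labels, while the order of NP and HP was not the same in both. These differences of 1 library against another carry no test.

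Most paralogs lay in the same order of diets as their partner genes, and 1 of them separated all 3 diets in its proportion to the partner. Rps27l, a paralog of Rps27 that is also induced by the tumour suppressor pathway that Mdm2 restrains, was at 511 and 576 FPKM in the LP libraries, 345, 526 and 355 FPKM in the NP libraries, and 364, 455 and 357 FPKM in the HP libraries. As a percent of Rps27, it stood at 34.3 and 35.1% on LP, 32.9, 32.8 and 32.6% on NP, and 38.4, 36.2 and 37.3% on HP. The 3 diets did not overlap in this ratio, with means of 34.7% ± 0.574 (SD) over the 2 LP libraries, 32.8% ± 0.164 over the 3 NP libraries and 37.3% ± 1.08 over the 3 HP libraries. Of the 8 ratios of a paralog or related gene to its partner it was the only one to separate all 3 diets. The ratios of Rpl36al and Rps19bp1 lay higher on HP than on LP without overlap, and NP overlapped both diets. The Rps27l ratio was singled out after its values were seen, so it carries no test. Rpl22l1, which binds RNA and can take the place of Rpl22, was at 163 and 185 FPKM in the LP libraries, 131, 158 and 130.5 FPKM in the NP libraries, and 103, 117 and 115 FPKM in the HP libraries, or 19.9 to 26.5% of Rpl22. Its diets did not overlap (log2 fold change of HP against LP -0.64, standard error 0.15, adjusted p = 0.219, limma).

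Rpl36al was as abundant as Rpl36a, at 92.0 to 131% of its level. The ratio was 107 and 103% on LP, 92.0 to 127% on NP and 119 to 131% on HP. Its log2 fold change of HP against LP was -0.42 (standard error 0.14, adjusted p = 0.320, limma), and that of Rpl36a, on the X chromosome, -0.67 (standard error 0.19, adjusted p = 0.261). Rps27rt stood at 2.25 to 2.92% of Rps27. Its own reads are uncertain, because 90.3% of the 75-base stretches of its transcript also occur in Rps27. Rpl7l1, which works in assembly of the large subunit and not in the finished ribosome, averaged 38.7 ± 4.57 FPKM (mean ± SD) over the 2 LP libraries and 33.5 ± 5.05 over the 3 HP libraries, with 37.1, 32.9 and 34.9 FPKM in the NP libraries, and the diets overlapped. Rps19bp1, a protein that binds Rps19 and is no part of the ribosome, was at 39.0 and 38.9 FPKM in the LP libraries, 25.8, 32.3 and 25.4 FPKM in the NP libraries, and 28.6, 29.2 and 23.2 FPKM in the HP libraries. LP stood above both other diets, with a log2 fold change of 0.48 against NP (standard error 0.16, adjusted p = 0.412, limma).

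Rpl3l, the striated muscle form of Rpl3, was the lowest tested member. It was at 1.37 and 3.02 FPKM in LP F2 and M, 0.43, 3.25 and 1.94 FPKM in NP F2, KO7 and M, and 1.49, 0.79 and 2.28 FPKM in HP F1, F2 and M. The libraries labelled M and KO7 (1.94 to 3.25 FPKM) lay above those labelled F1 or F2 (0.43 to 1.49 FPKM), and the diets overlapped, and the LP, NP and HP means were 2.19, 1.87 and 1.52 FPKM. The order by label was noticed in the values and was not tested. The canonical Rpl3 averaged 481 ± 34.8 FPKM (mean ± SD) over the 2 LP libraries, 427 ± 23.6 over the 3 NP libraries and 391 ± 33.2 over the 3 HP libraries, and no transcript stretch of 75 bases was shared between Rpl3l and another gene.

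**Figure D4:**
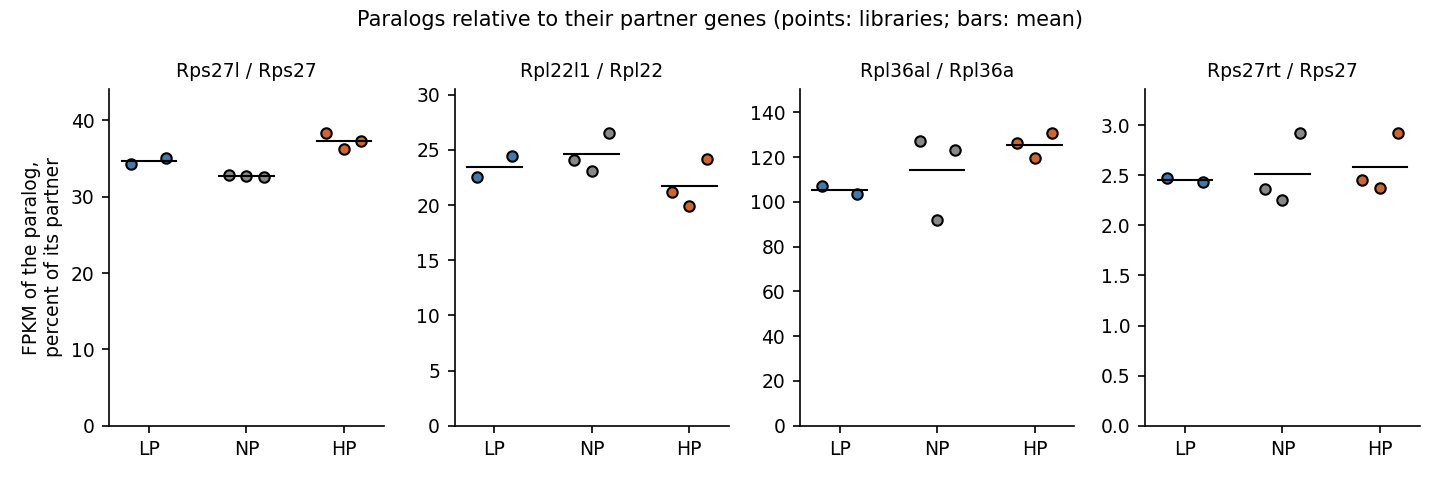
FPKM of 4 paralogs as a percent of their partner gene in each library (points) by diet, with the diet mean (bar). Rps27l over Rps27 lies at 32.6 to 32.9% on NP, 34.3 to 35.1% on LP and 36.2 to 38.4% on HP without overlap. In the other 3 ratios NP overlaps both other diets, and for Rpl36al over Rpl36a HP lies above LP without overlap.

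Ribosomal parts that the rule leaves out gave the same order of means. Fau, whose product is a ubiquitin-like protein fused to a small subunit protein, averaged 1581 ± 72.3 FPKM (mean ± SD) over the 2 LP libraries, 1296.5 ± 151 over the 3 NP libraries and 1162 ± 146 over the 3 HP libraries, with a log2 fold change of HP against LP of -0.45 (adjusted p = 0.350, limma). Rack1, a scaffold on the small subunit, averaged 547 ± 39.7 FPKM (mean ± SD) over the 2 LP libraries, 492 ± 110 over the 3 NP libraries and 373 ± 40.1 over the 3 HP libraries, with a log2 fold change of HP against LP of -0.55 (adjusted p = 0.330, limma). Neither passed the test.

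Other genes of the translation apparatus lay in the same direction with smaller medians. In 26 genes for elongation factors, initiation factors and further TOP mRNAs the median was -0.31 for HP against LP and 0.16 for LP against NP. On HP against LP 20 of the 26 lay below 0, where 55.1% of all genes did. On LP against NP 20 of the 26 lay above 0, where 47.9% of all genes did. Of these, Tpt1, which encodes an abundant protein with a TOP mRNA, averaged 2989 ± 360.4 FPKM (mean ± SD) over the 2 LP libraries, 2348 ± 284 over the 3 NP libraries and 1912 ± 188 over the 3 HP libraries. Eef1b2, an exchange factor of elongation, averaged 384 ± 25.5 FPKM (mean ± SD) over the 2 LP libraries, 268 ± 10.7 over the 3 NP libraries and 279 ± 24.8 over the 3 HP libraries. Naca and Btf3, which form a complex that meets new proteins at the ribosome, had log2 fold changes of HP against LP of -0.56 and -0.50 (adjusted p = 0.235 and 0.252, limma). In 42 genes of ribosome assembly and RNA polymerase I the medians were -0.21 and 0.13. Of the 42, 39 lay below 0 on HP against LP, and only 25 lay above 0 on LP against NP. Utp20, a factor of small subunit assembly, lay lower on HP than on either other diet, at 31.4 and 32.5 FPKM in the LP libraries, 32.7, 28.2 and 41.2 FPKM in the NP libraries, and 19.2, 14.1 and 15.8 FPKM in the HP libraries. Its adjusted p was 0.197 against LP and 0.118 against NP (limma), and no gene of these lists passed in any comparison.

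Genes of mTORC1 and of the control of ribosomal protein mRNA had a median near 0 between HP and LP. In 29 of them the median log2 fold change was 0.01 for HP against LP, -0.18 for LP against NP and -0.11 for HP against NP, and none passed. This list includes Rps6, which is also a ribosomal protein gene of the rule. Rragd, which encodes a GTPase that tethers mTORC1 to the lysosome, was at 5.18 and 4.81 FPKM in the LP libraries, 5.48, 7.16 and 5.07 FPKM in the NP libraries, and 13.9, 10.9 and 7.28 FPKM in the HP libraries, without overlap between HP and the rest (log2 fold change against LP 0.92, adjusted p = 0.252, limma). Castor1, whose protein senses arginine, averaged 4.57 ± 0.106 FPKM (mean ± SD) over the 2 LP libraries, 6.62 ± 1.08 over the 3 NP libraries and 4.26 ± 0.700 over the 3 HP libraries. Eif4ebp2, a repressor of translation that mTORC1 switches off, was at 16.9 and 19.2 FPKM in the LP libraries, 24.7, 35.1 and 24.4 FPKM in the NP libraries, and 26.3, 19.9 and 23.3 FPKM in the HP libraries, which put LP below NP.

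Mitochondrial ribosomal proteins, genes for oxidative phosphorylation and other short transcripts also lay higher on LP than on NP. In 78 mitochondrial ribosomal protein genes the median log2 fold change was -0.26 for HP against LP and 0.24 for LP against NP. In 78 nuclear respiratory chain genes it was -0.07 and 0.26, and 0.18 for HP against NP. For other protein-coding genes the median followed the length of the longest annotated transcript. For HP against LP it was -0.19 in 560 genes under 1000 bases, -0.10 in 4678 genes of 1000 to 3000 bases and 0.04 in 6709 longer genes, and for LP against NP 0.24, 0.05 and -0.11. The ribosomal protein genes (-0.50 and 0.36) lay beyond the short genes in both comparisons, and whether they differ from them was not tested. Pseudogenes named after the members lay in the same direction (-0.37 and 0.23 in 63 tested), and their sum stood at 1.59 to 1.93 FPKM per 100 FPKM of members in every library. Medians close to those of the members were also found in lists with other roles, at -0.48 for HP against LP in the 9 immediate early genes and 0.35 for LP against NP in 8 macrophage markers. Reads of members and pseudogenes cannot be fully told apart, since a median of 23.2% of the 75-base stretches of a member's longest transcript occur in another gene's transcript.

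**Figure D5:**
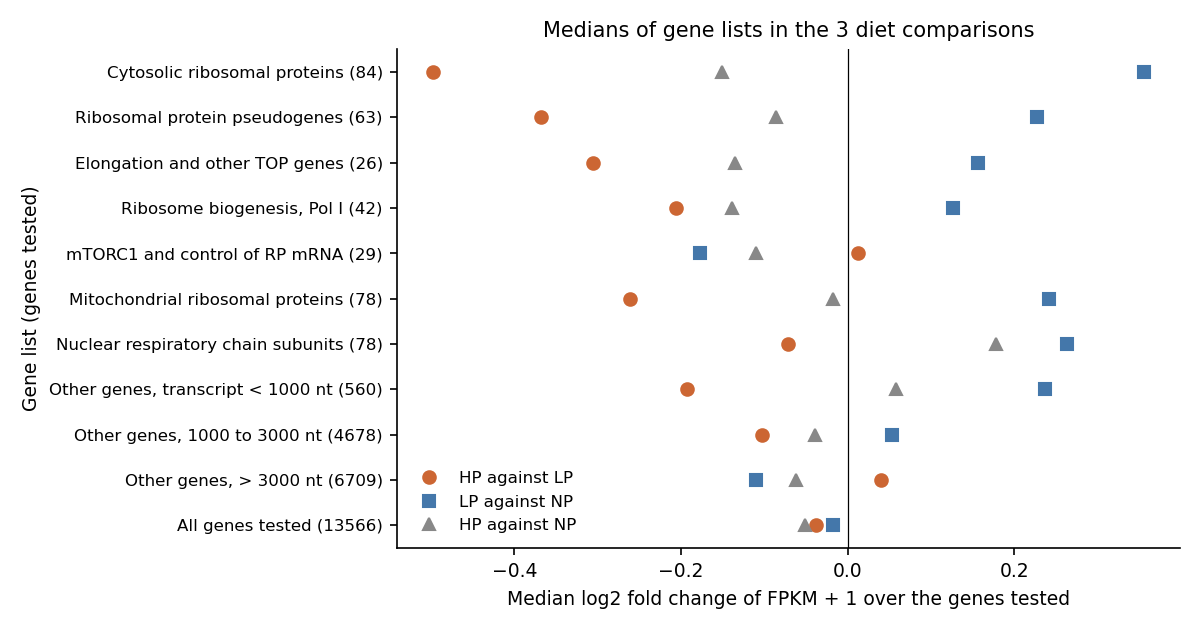
Median log2 fold change of FPKM + 1 over the tested genes of each list (number in brackets) in the 3 diet comparisons, with all genes tested in the last row. The ribosomal protein genes lie at -0.50 for HP against LP and 0.36 for LP against NP, their pseudogenes at -0.37 and 0.23, and the mTORC1 list at 0.01 and -0.18; marker lists and the immediate early genes are not plotted.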

How the data were processed

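RNA of flow-sorted kidney epithelial cells was sequenced in 8 libraries (LP 2, NP 3, HP 3), each a pool of 2 to 3 mice, so p-values measure the spread between pools. Per the labels, the authors used Trim Galore 0.6.7 for trimming and RSEM 1.3.3 for quantification (GENCODE M26, GRCm39), and deposited FPKM per gene for 53700 genes without a filter. Counts are not part of the table, and depth was inferred from the spacing of low FPKM values, of which 83.7 to 88.8% lay within 0.15 of a whole fragment. Symbols came from GENCODE M21 (52147 matched, 1553 not), an earlier build than that of the files, so no position is taken from them.

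Log2(FPKM + 1) was compared with limma 3.58.1 (R 4.3.3, trend in the variance prior) over 13566 genes, those that reached 1 FPKM in 2 or more libraries. The model had a mean for each diet and used all 8 libraries (residual degrees of freedom 5, prior 4.11), two-sided, with Benjamini-Hochberg adjustment over all genes at 0.05. Fold changes on this scale understate those of low genes. The fit was tested on simulated data. The members, gene lists and tests were chosen with earlier results of these data known. Genes were named by level, smallest p, spread within a diet, role (stalk, Rpsa, Rps6), paralogy or failing the filter; the Rps27l ratio was singled out after its values were seen. Some genes that these rules take are not reported by name here. Lists were described by counts and medians, without a test.

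Alternatives were other pseudocounts, filters and scalings, no trend, array weights, only the compared diets, a block, the letter F or M as covariate and leaving out each library. Libraries of the same label deviated together (correlation 0.145 to 0.346, over 0.1 in 6 of 6 pairs), against -0.38 to 0.25 and 3 of 15 pairs over 0.1 for different labels. The block holds F2 and M and drops HP F1 and NP KO7. Start sequences are from RefSeq (GRCm38.p6). Shared stretches were counted in GENCODE M21 transcripts.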

Additional observations from a re-analysis of the deposited data

How the results depend on the processing

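Under the 23 alternative settings, no member passed the threshold for LP against NP or HP against NP, and for HP against LP only array weights (1 member) and the letter F or M as covariate without NP KO7 (20 members) gave a call, where 22 and 132 of all genes were called lower and 14 and 57 higher, against 2 and 0 in the fit as reported. The direction of the medians held for HP against LP (-0.60 to -0.26, 82 to 84 tested members below 0 at the filter used) and LP against NP (0.14 to 0.46). Quantile normalization gave the smallest, -0.26 and 0.14. For HP against NP the median was -0.27 to -0.02, and minus the median of all genes it ran from -0.24 to 0.11, so its direction against other genes was not stable. Leaving out 1 library gave -0.60 to -0.43 for HP against LP, 0.24 to 0.46 for LP against NP and -0.27 to -0.05 for HP against NP, with 0 calls of members. The replicate block (F2 or M) gave 0 calls, as in the fit without it, with medians of -0.48, 0.46 and -0.02. Within the label F2, chosen after seeing the data, HP against NP reversed to 0.050 and HP against LP was -0.31, and within M LP against NP was 0.57. Among 36 named tested members, of which none was called in the fit as reported and only those 2 settings called any, the sign of a fold change differed from the main value in 71 of 827 values for HP against NP (17 genes), 4 for HP against LP (3 genes) and 13 for LP against NP (5 genes).

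The share of the library was 7.49, 6.42 and 5.62% on LP, NP and HP. It was 13.3, 11.2 and 10.5% of protein-coding FPKM without mitochondrial and haemoglobin genes, and 7.62% on LP with pseudogenes. The median deviation of members from their mean was 0.33, -0.026 and -0.17 on the log2 scale. The cause of these movements was not tested. With 2 LP libraries and a depth that is only estimated, a p that misses the threshold does not show that a member's level was the same on both diets.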
